A study of Mus musculus with 5 samples.

Results

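This account covers 4 genes for surface or surface-bound proteins of antigen-presenting cells, *Cd40*, *Fcgr1*, *Ly75* and *Ly86*, in RNA-seq of bone marrow-derived dendritic cells (BMDCs). They were chosen by name from the 1355 genes in the authors' table of differentially expressed genes between *Irf8*-OE and control cultures, and all 4 were found there. The 3 *Irf8*-OE samples carry *Irf8* CAG-LSL with *Itgax* Cre. In these mice a Flag-tagged *Irf8* behind a stop cassette, knocked in at H11, is switched on by Cre in cells that use the promoter of *Itgax* (CD11c), which is not active in dendritic cells alone. The 2 control samples are wild type by their labels and *Irf8* CAG-LSL without Cre by the paper. All mice were on the C57BL/6 background, 8 weeks old and labelled male. Bone marrow of both groups was grown with 5 ng/ml GM-CSF and 200 ng/ml Flt3L, replated on day 9 and collected on days 15 to 16, with TNF-α, given at 20 ng/ml, in every sample's label. Nothing in the labels says whether the samples of a group came from separate mice, so the spread between them may be technical.

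Dendritic cells take up material from their surroundings, cut it into peptides and show these to T cells. A T cell is activated fully only when it also receives co-stimulation. CD40 is a receptor of the TNF receptor family on dendritic cells and B cells that receives CD40 ligand from helper T cells and thereby raises the presenting cell's capacity to prime T cells. *Fcgr1* encodes CD64, the high-affinity receptor for IgG, which takes up antigen bound by antibody and is widely used to mark monocytes and macrophages. *Ly75* encodes DEC-205, an endocytic receptor of the mannose receptor family that is abundant on cross-presenting dendritic cells. *Ly86* encodes MD-1, a secreted protein that holds the Toll-like receptor homologue RP105 (*Cd180*) at the surface. *Irf8* itself encodes a transcription factor that type 1 conventional dendritic cells need.

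The promoters of 3 of the 4 members were at hand in the RefSeq sequences of GRCm38.p6 and are shown because the comparison is one of a transcription factor's dose. Each runs from 250 bases before to 50 bases after the RefSeq start, 5′ to 3′ on the gene's strand. Capitals mark matches to any of 5 short cores, searched on both strands. These were the gamma-activated site bound by STAT dimers (TTCNNNGAA), the tandem core bound by interferon regulatory factors (GAAANNGAA), the Ets-IRF composite core (GGAANNGAA), the AP-1-IRF composite core and the NF-κB core, and the tandem and Ets-IRF cores differ in a single letter.
*Fcgr1*, chr3:96293920-96294219, minus strand: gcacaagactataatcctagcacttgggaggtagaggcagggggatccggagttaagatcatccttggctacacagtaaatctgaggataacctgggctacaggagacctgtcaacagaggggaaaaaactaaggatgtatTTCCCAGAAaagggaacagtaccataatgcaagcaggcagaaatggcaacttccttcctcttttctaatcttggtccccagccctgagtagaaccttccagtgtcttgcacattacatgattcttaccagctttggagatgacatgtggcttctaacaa
*Ly75*, chr2:60383224-60383523, minus strand: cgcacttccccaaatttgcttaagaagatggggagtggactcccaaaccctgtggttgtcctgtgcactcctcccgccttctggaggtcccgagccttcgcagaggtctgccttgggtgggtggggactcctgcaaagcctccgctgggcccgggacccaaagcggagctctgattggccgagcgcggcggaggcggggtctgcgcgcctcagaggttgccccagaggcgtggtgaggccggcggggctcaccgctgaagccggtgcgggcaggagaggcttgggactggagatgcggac
*Ly86*, chr13:37345095-37345394, plus strand: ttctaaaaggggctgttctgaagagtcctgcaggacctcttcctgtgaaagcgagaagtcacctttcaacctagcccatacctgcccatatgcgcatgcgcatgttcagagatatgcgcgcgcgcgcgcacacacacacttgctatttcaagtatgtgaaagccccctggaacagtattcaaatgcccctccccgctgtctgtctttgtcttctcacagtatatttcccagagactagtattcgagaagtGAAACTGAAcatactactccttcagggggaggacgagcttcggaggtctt

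The *Fcgr1* window held 1 match, TTCCCAGAA, a gamma-activated site core that begins 109 bases upstream of the start. Of all 32851 promoter windows of this length, 8.3% held that core. The *Ly86* window held 1 match, GAAACTGAA, a tandem interferon-response core whose first base is the RefSeq start itself, and 8.56% of all windows held that one. By the deposited coordinates *Ly86* begins at 37345208, upstream of that RefSeq start, so this match lies within the gene. No core was found in the *Ly75* window. It was the richest of the 3 in G and C, at 67% against 50.3% for *Ly86* and 46% for *Fcgr1*, where the median over all windows was 52.7%. It held 21 CpG dinucleotides, against 13 in *Ly86* and 1 in *Fcgr1*. The Ets-IRF core was found in 8.24% of all windows, the AP-1-IRF core in 0.12% and the NF-κB core in 0.41%, and in none of these 3. These letters are descriptions of the windows and not binding sites.

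Before the members, the labels were checked. *Irf8* had 2835 and 2747 normalized counts in the 2 controls and 7141, 6519 and 6021 in the 3 *Irf8*-OE samples, so all *Irf8*-OE samples were above both controls. A normalized count is a gene's number of reads after division by the size factor of its sample, with no correction for length. Reads from the knocked-in and the native *Irf8* cannot be told apart in this value. The data went against the label male in the *Irf8*-OE samples. *Xist*, transcribed from the inactive X, lay between 10772 and 13476 normalized counts in them and at most at 1.12 in the controls, while *Uty*, *Kdm5d*, *Eif2s3y* and *Ddx3y*, 4 genes of the Y chromosome, were at 0 in every *Irf8*-OE sample and between 484 and 1385 in the controls. Sex therefore cannot be told apart from genotype in any value that follows. All 4 members lie on autosomes. The listed genes held between 646123 and 1062127 reads per sample. Library depth is unknown from this, since genes outside the list are not analysed here.

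All 4 members were higher in *Irf8*-OE BMDCs, by 2.02-fold to 2.71-fold between group means, and in none did the groups overlap. *Fcgr1* stood above the other members in the size of its difference, and *Cd40*, *Ly75* and *Ly86* all lay near 2-fold. Each was called higher with limma, which here means a log2 fold change over 1 together with a p-value below 0.05 after Benjamini-Hochberg adjustment. The table holds only genes that had already passed such thresholds in these 5 samples, so nothing is read from 4 of 4. Of all 1355 listed genes 58.1% were called higher, 41% lower and 99.1% in either direction, and 58.8% were higher without overlap of the groups. Counting both directions, the groups did not overlap in 100% of the listed genes, so nothing is read from the lack of overlap either. Log2 fold changes are on the scale log2(normalized counts + 1). The median over all listed genes on that scale was 1.14, and only *Fcgr1* of the members was above it. This median, like those of the gene lists below, takes higher and lower genes together and is not the typical size of a higher gene. Among the 787 genes called higher, *Fcgr1* ranked 527th in size, *Cd40* 730th, *Ly86* 738th and *Ly75* 777th. All 4 members thus lay below the middle of that ranking.

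*Cd40* (ENSMUSG00000017652, chromosome 2 of GRCm38, 165055627 to 165072948, plus strand) has 9 exons in its longest coding transcript in GENCODE vM21, with 867 coding bases. It had 215 and 218 normalized counts in the controls and 521, 428 and 423 in *Irf8*-OE. The controls were almost equal, and the first *Irf8*-OE sample stood above the other two. The lowest *Irf8*-OE sample was 1.94 times the higher control. With limma the log2 fold change was 1.07 with a standard error of 0.12 and an adjusted p of 0.00011. Leaving out the first *Irf8*-OE sample made it 0.97, below the threshold of 1. The spread within *Irf8*-OE, 12.2% of the mean (SD, n = 3), was larger than counting error, whose SD was between 4.29% and 4.87% for 421 to 544 reads.

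*Fcgr1* (ENSMUSG00000015947, chromosome 3, 96282909 to 96293969, minus strand) has 6 exons and 1212 coding bases. It had 434 and 498 normalized counts in the controls and 1277, 1292 and 1223 in *Irf8*-OE. Here the 3 *Irf8*-OE samples were close together, with an SD of 2.86% of their mean, which is about the counting error of 2.69% to 2.87%. The controls differed more, with an SD of 9.75% (n = 2). The lowest *Irf8*-OE sample was 2.46 times the higher control. Its log2 fold change by limma, 1.44 with a standard error of 0.08 and an adjusted p of 5.1e-06, was the 527th in size among the 787 genes called higher.

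*Ly75* (ENSMUSG00000026980, chromosome 2, 60292103 to 60383303, minus strand) is the longest member, with 35 exons and 5169 coding bases. It had 1155 and 1107 normalized counts in the controls and 2203, 2257 and 2388 in *Irf8*-OE. Both groups were tight, at 3.00% (n = 2) and 4.18% (n = 3) of their means. The third *Irf8*-OE sample was the highest for *Ly75*, whereas for *Cd40* it was the lowest. Its log2 fold change by limma, 1.01 with a standard error of 0.06 and an adjusted p of 7.9e-06, was the 777th of the 787 genes called higher. It lay so near the threshold that it fell to 0.98 without the third *Irf8*-OE sample and also to 0.98 without the second control. An antisense gene, *Gm13571*, overlaps *Ly75* and shares 249 of its 6905 exonic bases. The library protocol does not mark strand, so reads in these bases cannot be assigned to either gene.

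*Ly86* (ENSMUSG00000021423, chromosome 13, 37345208 to 37419036, plus strand) has 5 exons and 486 coding bases and was the least abundant member. It had 25.8 and 32.6 normalized counts in the controls and 60.4, 58.8 and 66.3 in *Irf8*-OE. Behind these stood 23 and 34 reads in the controls and 63, 63 and 66 in *Irf8*-OE. The 95% Poisson intervals of the higher control (22.6 to 45.6 normalized counts) and of the lowest *Irf8*-OE sample (45.2 to 75.3) overlapped at their ends, and these intervals cover counting error only. In limma it differed by a log2 fold change of 1.06 at an adjusted p of 0.0018, with a standard error of 0.21, the largest of the 4. The log2 fold change was 0.90 without the first control and 1.22 without the second.

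**Figure D1:**
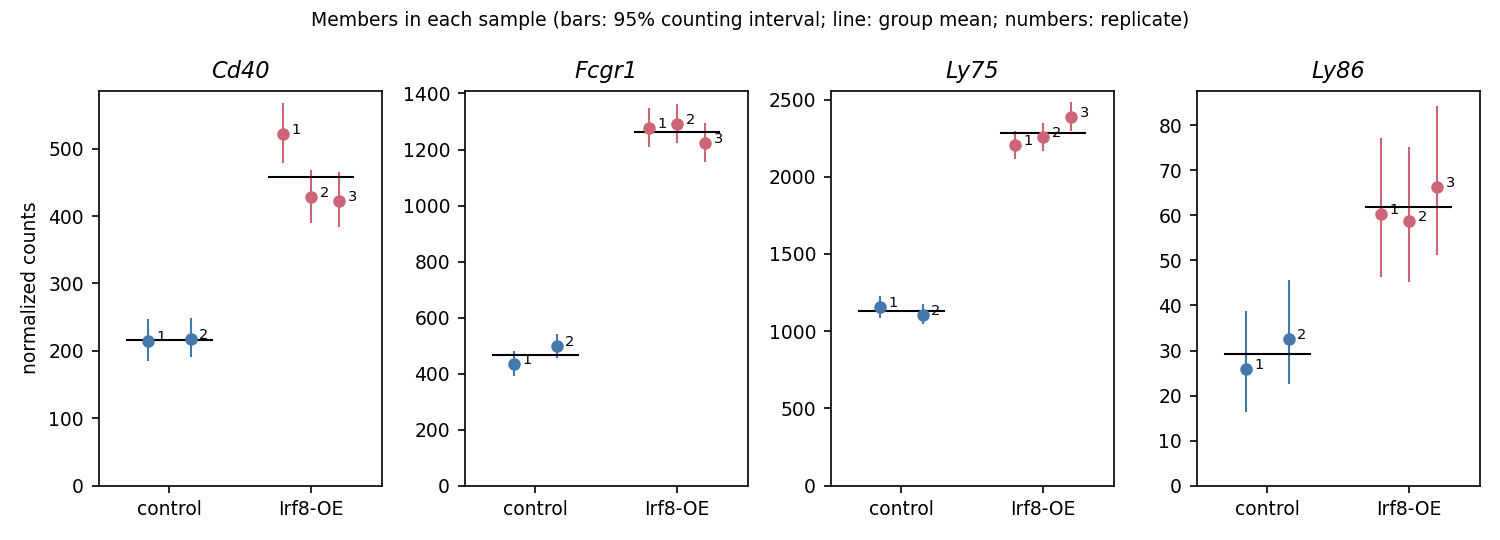
Normalized counts of the 4 members (vertical axes, each starting at 0) in the 2 control and 3 *Irf8*-OE samples, 1 point per sample with its replicate number, the 95% Poisson interval as a bar and the group mean as a line. Every *Irf8*-OE point lies above both control points in all 4 panels, and the first *Irf8*-OE sample stands apart for *Cd40* at 521.

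Levels of different genes can be compared only per length. Per kb of gene length, the order was *Fcgr1*, *Ly75*, *Cd40* and *Ly86* from highest to lowest in each of the 5 samples. In the controls *Fcgr1* had 180 ± 17.5 (SD, n = 2) and *Ly75* 164 ± 4.91 normalized counts per kb. In the first control the 2 genes were almost equal, at 167.6 for *Fcgr1* and 167.3 for *Ly75*. In the second control they were at 192 and 160. In *Irf8*-OE they lay further apart, at 488 ± 14.0 (SD, n = 3) for *Fcgr1* and 331 ± 13.8 for *Ly75*. *Cd40* followed with 63.5 ± 0.66 in the controls and 134 ± 16.3 in *Irf8*-OE. *Ly86* was last by a wide margin, with 8.05 ± 1.32 and 17.0 ± 1.08 normalized counts per kb.

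**Figure D2:**
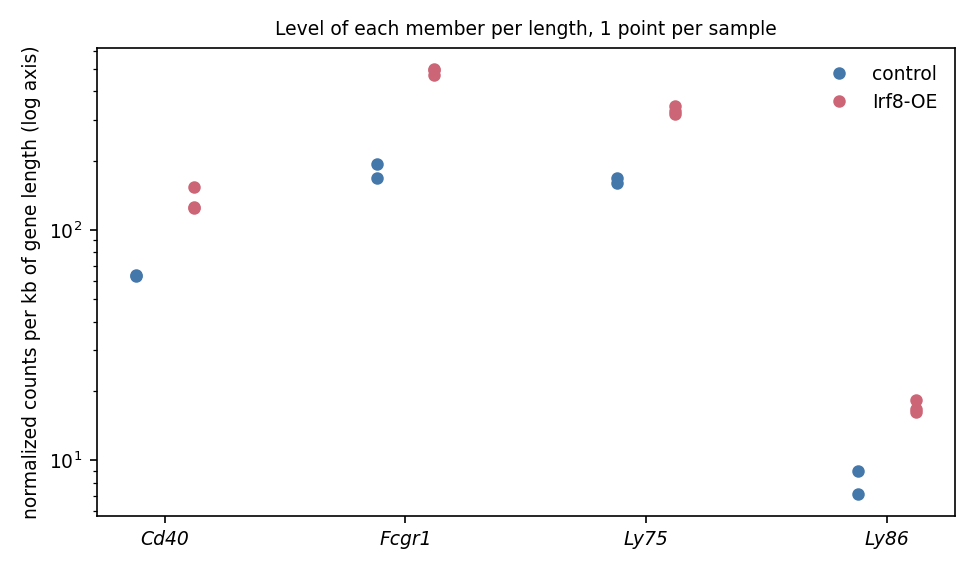
Normalized counts per kb of gene length (vertical log axis) for the 4 members, 1 point per sample, with controls in blue and *Irf8*-OE in red. *Fcgr1* and *Ly75* lie closer together in the controls, at 180 and 164 on average, than in *Irf8*-OE, at 488 and 331.

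Whether the members moved by the same amount was asked with the ratio of a pair of genes within each sample. Tests were run on differences of log2(normalized counts + 1), and the ratios printed are of normalized counts without the added 1. All 6 pairs were compared by an exact permutation test over the 10 splits of 5 samples, two-sided on the size of the difference, for which 0.1 is the smallest p the design allows. *Fcgr1* changed by 0.43 log2 units more than *Ly75* (exact p = 0.1, or 0.3 once adjusted by Benjamini-Hochberg for 6 pairs). The *Fcgr1* to *Ly75* ratio was 0.375 and 0.450 in the controls and 0.580, 0.573 and 0.512 in *Irf8*-OE, without overlap. *Fcgr1* changed by 0.38 more than *Ly86* (exact p = 0.1, adjusted 0.3), with ratios of 16.8 and 15.3 in the controls and 21.1, 21.97 and 18.5 in *Irf8*-OE. *Cd40* changed by 0.37 less than *Fcgr1* on the log2 scale, with ratios of 0.495 and 0.437 in the controls and 0.408, 0.331 and 0.346 in *Irf8*-OE (exact p = 0.2, adjusted 0.4). So the 3 ratios that involve *Fcgr1* did not overlap between the groups, but none of the tests could pass 0.05. The differences involving the low *Ly86* depended on the scale, and *Fcgr1* against *Ly86* was 0.74 after quantile normalization.

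The 3 pairs without *Fcgr1* overlapped. The differences in log2 fold change were 0.06 for *Cd40* against *Ly75*, 0.01 for *Cd40* against *Ly86* and -0.05 for *Ly75* against *Ly86* (exact p = 0.9, 1 and 0.8). With 2 and 3 samples this does not show that these genes changed alike. The *Cd40* to *Ly86* ratio, for one, ran from 6.68 to 8.30 in the controls and from 6.38 to 8.63 in *Irf8*-OE.

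**Figure D3:**
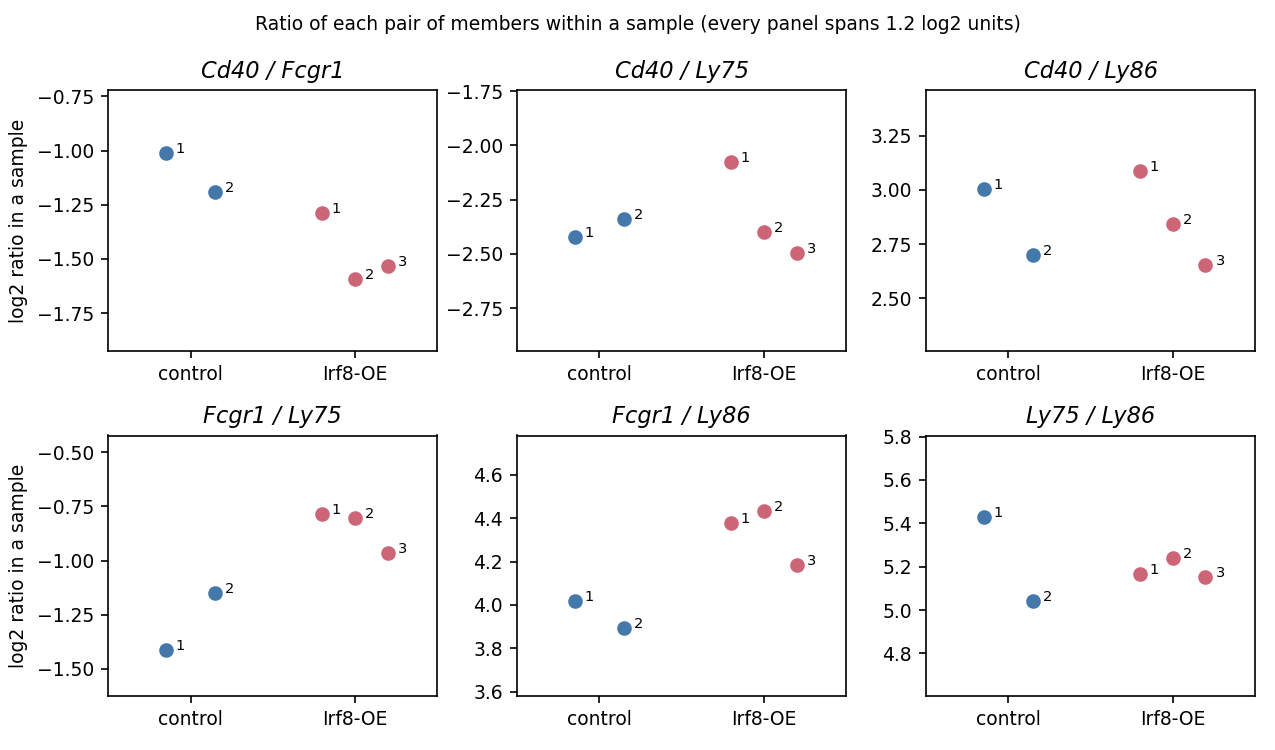
Difference in log2(normalized counts + 1) of each pair of members within a sample (vertical axes, each spanning the same range), with replicate numbers, controls in blue and *Irf8*-OE in red. The 3 panels with *Fcgr1* show no overlap of the groups, and the 3 others do overlap, with a mean difference of 0.06 or less in size.

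The members were also set against *Irf8* itself, a description chosen after the values were seen. Per 100 normalized counts of *Irf8*, *Cd40* had 7.57 and 7.93 in the controls and 7.30, 6.56 and 7.02 in *Irf8*-OE. *Ly75* had 40.7 and 40.3 in the controls and 30.8, 34.6 and 39.7 in *Irf8*-OE, and *Ly86* had 0.912 and 1.19 against 0.846, 0.902 and 1.10. *Fcgr1* had 15.3 and 18.1 in the controls and 17.9, 19.8 and 20.3 in *Irf8*-OE. Relative to *Irf8*, the log2 fold changes were thus -0.16 for *Cd40*, -0.22 for *Ly75*, -0.17 for *Ly86* and 0.21 for *Fcgr1*. Within *Irf8*-OE the sample with the highest *Irf8* had the highest *Cd40* and the lowest *Ly75*. This sample also departed more broadly from the other *Irf8*-OE samples. Its chi-square per gene, which is larger for a larger difference between replicates, was 8.23 and 4.63 against them. Between those others it was 2.83. A link of *Cd40* or *Ly75* to the level of *Irf8* within the group was not tested.

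By the Euclidean distance between gene-centred log2(normalized counts + 1) profiles over the 5 samples, the listed genes most like *Cd40* were *Mrc2*, *Ldhb* and *Pald1* (distances of 0.11, 0.12 and 0.12). *Mrc2*, which encodes the endocytic receptor Endo180 of the same family as DEC-205, had 146 and 145 normalized counts in the controls and 355, 316 and 295 in *Irf8*-OE. Most like *Fcgr1* were *Irx3*, *Tgfbi* and *Sema6d* (0.13, 0.16 and 0.16). Most like *Ly75* were *Mmp14*, *Errfi1* and *Pf4* (0.08, 0.10 and 0.11). *Mmp14*, a membrane-bound metalloproteinase, had 3209 and 3011 normalized counts in the controls and 6365, 6445 and 6871 in *Irf8*-OE. Among those most like *Ly86* were *Tgfb1i1* and *Farp1* (0.04 and 0.15). The log2 fold changes of these 11 genes ran from 1.04 to 1.10 apart from 1.14 for *Mrc2* and 1.38 to 1.42 for the 3 nearest to *Fcgr1*.

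The genes that lie nearest to the members among those listed were called in either direction, where 41% of all listed genes were called lower. Closer genes outside the list are not seen here. *Slc12a5*, 55.9 kb from *Cd40*, was called lower at a log2 fold change of -1.80. *Gm20627*, a noncoding transcript 26.6 kb from *Fcgr1*, was called lower at -2.04. *F13a1*, which encodes a subunit of coagulation factor XIII, lies 295 kb from *Ly86* and fell from 20344 to 3714 normalized counts on average, a log2 fold change of -2.45. For *Ly75* the nearest listed gene was *Nr4a2*, 3168 kb away and called higher at 1.57.

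Each member was then placed among genes with related roles. The counts in these lists stand beside 58.1% of all listed genes called higher and 41% called lower. Of 20 co-stimulatory ligands and receptors, 3 were listed. Beside *Cd40*, *Slamf1*, a co-stimulatory receptor of the SLAM family, was called higher at a log2 fold change of 1.15, and *Cd48*, which encodes a ligand of CD2 and 2B4, was called lower at -1.32. *Cd48* had 2814 ± 90.5 normalized counts in the controls (SD, n = 2) and 1126 ± 110 in *Irf8*-OE (SD, n = 3). The median of these 3 was 1.07, the value of *Cd40* itself, against 1.14 over all listed genes. None of 20 genes of CD40 signalling, such as the TRAF adaptors and NF-κB subunits, was listed, so these are not analysed here.

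Of 19 Fc receptors and their adaptors, 5 were listed, with 3 called higher and 2 lower. *Fcrls*, a scavenger receptor-like member of the Fc receptor family, was higher with *Fcgr1*, from 1027 ± 3.33 to 3928 ± 169 normalized counts, at a log2 fold change of 1.93. *Fcgrt*, which encodes the neonatal Fc receptor that salvages IgG inside cells, was higher at 1.28. The 2 lower ones were subunits of the high-affinity IgE receptor of mast cells and basophils. *Fcer1a* fell from 5221 ± 5.24 to 1370.2 ± 44.1 normalized counts and *Ms4a2* from 4693 ± 127 to 1048 ± 153, with log2 fold changes of -1.93 and -2.17. *Fcgr1* and *Fcgrt*, whose products bind IgG, and the 2 chains of the IgE receptor thus differed in opposite directions. Both IgE receptor genes are also among the mast cell and basophil markers. The median over the 5 genes was 1.28.

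Of 44 endocytic and C-type lectin receptors, 12 were listed, 9 of them called higher and 3 lower, with a median log2 fold change of 1.55. *Ly75* had the smallest difference of the 12. *Scarf1*, a scavenger receptor that binds apoptotic cells, had a log2 fold change of 2.40, with 439 ± 4.95 normalized counts in *Irf8*-OE against 83.2 ± 15.9 in the controls. *Clec1a* was higher at 2.54. *Cd209a*, which encodes a mouse homologue of DC-SIGN, was lower at -3.03, with 7.06 ± 1.38 against 66.1 ± 21.9. *Axl*, a receptor for phosphatidylserine-bound ligands, and *Stab1*, a scavenger receptor, were chosen after their values were seen, as the 2 most abundant of the higher genes beside *Ly75*. *Axl* had 8784 ± 85.5 against 2771 ± 34.4 normalized counts, and *Stab1* 2171 ± 183 against 516 ± 46.5. *Siglech*, at 0 in both controls, was at least 4.73-fold higher than a floor of 3 reads per control. With *Siglech* at that bound the median of the list was 1.55.

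Of 28 genes of the RP105-MD-1 and Toll-like receptor complexes, 4 were listed and all 4 were called higher, with a median of 1.23. All had few reads. *Tlr5*, a flagellin receptor, went from 17.6 ± 8.55 normalized counts in controls to 43.9 ± 5.20 in *Irf8*-OE, at a log2 fold change of 1.35. *Tlr11*, which senses the profilin of *Toxoplasma* and is typical of type 1 conventional dendritic cells, had 21.8 ± 4.89 against 5.69 ± 0.10, and *Lbp*, which encodes the LPS-binding protein, 74.5 ± 7.66 against 34.2 ± 8.63. *Cd180*, which encodes the receptor that MD-1 partners, was not among the listed genes and is not analysed here. None of 16 MHC class II presentation genes and none of 26 MHC class I presentation genes was listed. Of 24 genes inducible by interferon-γ, a cytokine known to raise CD64 and CD40, 4 were listed. *Iigp1* and *Cxcl10* were called higher at 2.35 and 1.47, *Cxcl9* was at least 4.98-fold higher than a floor of 3 reads per control, and *Socs1*, a feedback inhibitor of cytokine signalling, was called lower at -1.21.

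**Figure D4:**
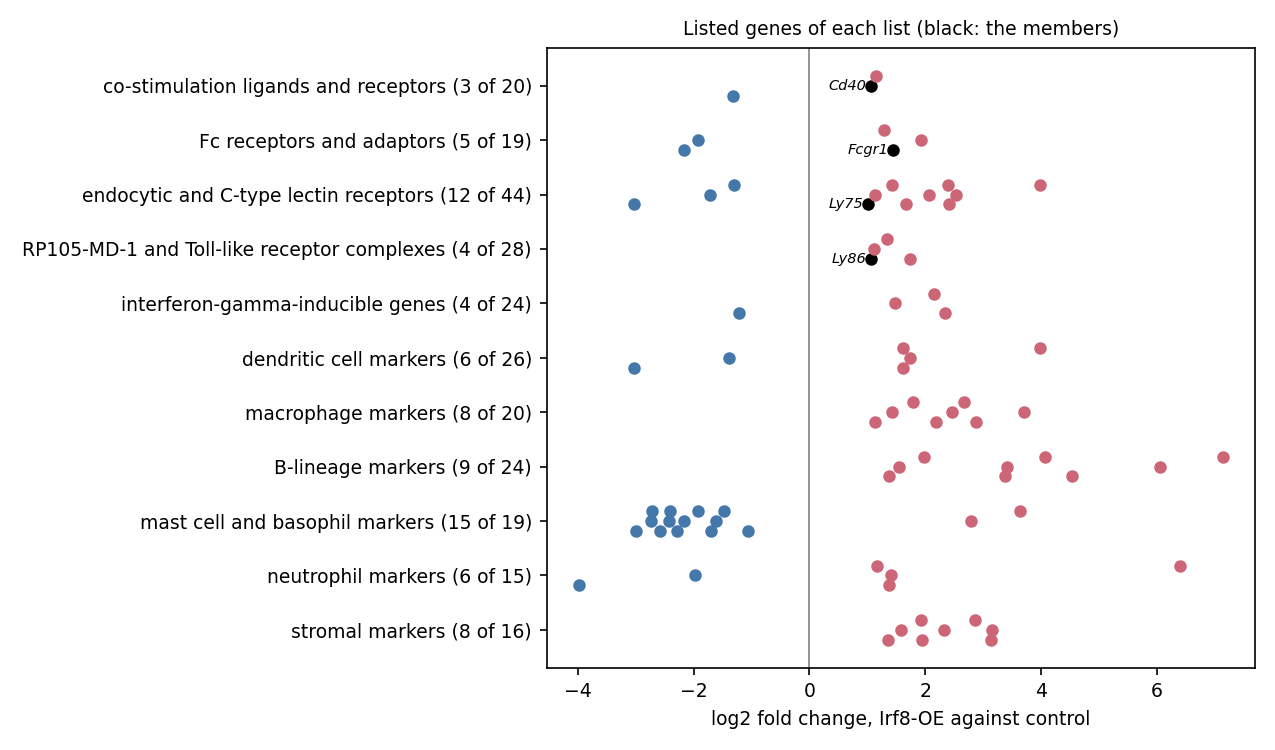
Log2 fold change (horizontal axis) of each listed gene of 11 lists, chosen with earlier results of these data known. Labels give the number listed of the number in the list. Higher genes are in red, lower ones in blue and the 4 members in black. The members sit at the low end of the higher genes of their lists, except *Fcgr1*, which lies between *Fcgrt* at 1.28 and *Fcrls* at 1.93. Values of genes at 0 in the controls depend on the added count of 1.

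The cultures also differed in markers of several cell types, and in bulk samples fewer cells of a type and less RNA per cell cannot be told apart. Every count of markers below likewise stands beside 58.1% of all listed genes called higher and 41% called lower. Of 26 dendritic cell markers 6 were listed, with 4 of them higher and 2 lower. *Itgae*, the gene of CD103, had 162 ± 17.1 normalized counts in *Irf8*-OE against 51.7 ± 1.56, and *Fscn1*, an actin-bundling protein of mature dendritic cells, 12502 ± 315 against 4096 ± 157. The other 2 higher ones were *Tlr11* and *Siglech*. The 2 lower ones were *Cd209a*, at a log2 fold change of -3.03, and *Cd24a*, a surface marker of type 1 conventional dendritic cells and of several other cell types, at -1.38. *Cd24a*, chosen after its values were seen, was the second most abundant of the 6 in *Irf8*-OE and the most abundant in the controls, with 3855 ± 255 against 10057 ± 522 normalized counts. The label of dendritic cells can be checked only in part, because such defining genes as *Itgax*, *Flt3* and *Zbtb46* were not listed. Of 20 macrophage markers, a list from which *Fcgr1* was left out, 8 were listed and all 8 were higher. Their summed level ran from 4422 to 4548 normalized counts in the control samples and from 22409 to 27152 in the *Irf8*-OE samples. *C1qa*, *Apoe* and *Aif1* had log2 fold changes of 3.72, 2.88 and 2.66, each larger than that of *Fcgr1*. None of the 8 was at 0 in either group, and 1 of them, *Mrc2*, is also in the list of endocytic receptors.

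Of 19 mast cell and basophil markers, 15 were listed, 13 of them lower and 2 higher. Their sum ran from 265376 to 269597 normalized counts over the controls and from 42839 to 46893 over the *Irf8*-OE samples, or 26.2% to 26.5% and 6.71% to 7.23% of the reads on listed genes. *Cpa3* fell by 3.00 on the log2 scale, while the basophil proteases *Prss34* and *Mcpt8* were higher at 3.64 and 2.79. Of 24 B-lineage markers 9 were listed and all 9 were higher, with sums of 262 to 316 normalized counts among controls against 3642 to 4272 among *Irf8*-OE samples. *Iglc1* and *Iglc2* were at 0 in both controls, and *Jchain* and *Igkc* were higher at 7.14 and 4.53. *Jchain* had 0 and 3.84 normalized counts in the controls, so its value depends on the added count of 1. *Iglc1* was at least 21.2-fold higher than a floor of 3 reads per control. The median of the 9 was 3.41, or 2.66 with the genes at 0 to 3 reads in the controls at that bound. B cells also express *Cd40*, *Ly86* and *Ly75*.

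Among 15 neutrophil markers 6 were listed, with 4 higher and 2 lower, and sums of 996 to 1065 against 2244 to 2349 normalized counts. *Mpo*, which marks granulocyte precursors, was higher at 6.40, whereas *Ly6g* and *Mmp9* were lower at -3.98 and -1.97. Of 16 stromal markers 8 were listed and all 8 were higher, led by *Postn*, *Col1a1* and *Col3a1* at 3.16, 3.13 and 2.87, with sums of 3039 to 3092 against 12046 to 13085. These shifts ran between the same samples as the differences of the 4 members, and their part in them was not tested.

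Tests on reads recovered from the normalized counts gave nearly the same sizes. Divided by the step of their sample, 100% of the values came out whole to within 0.01 reads. DESeq2 called 1354 of the 1355 genes and edgeR's quasi-likelihood test 1353, and both called all 4 members higher, where 58.8% and 58.7% of all listed genes were called so. Scaling estimated anew on the listed genes alone (TMM) lowered the median log2 fold change over all genes by 0.33. Under it the members were at 0.74 for *Cd40*, 1.11 for *Fcgr1*, 0.68 for *Ly75* and 0.74 for *Ly86*. All 4 stayed above 0, and only *Fcgr1* was still past the threshold of 1, where 42.9% of all listed genes were called higher. With each sample left out in turn 3 or 4 members were called, against 54.8% and 53.7% of all listed genes without the first or second control and 55.6%, 57.4% and 57.1% without *Irf8*-OE sample 1, 2 or 3. No member passed a threshold of 2, which 24.7% of the listed genes passed upward.

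**Figure D5:**
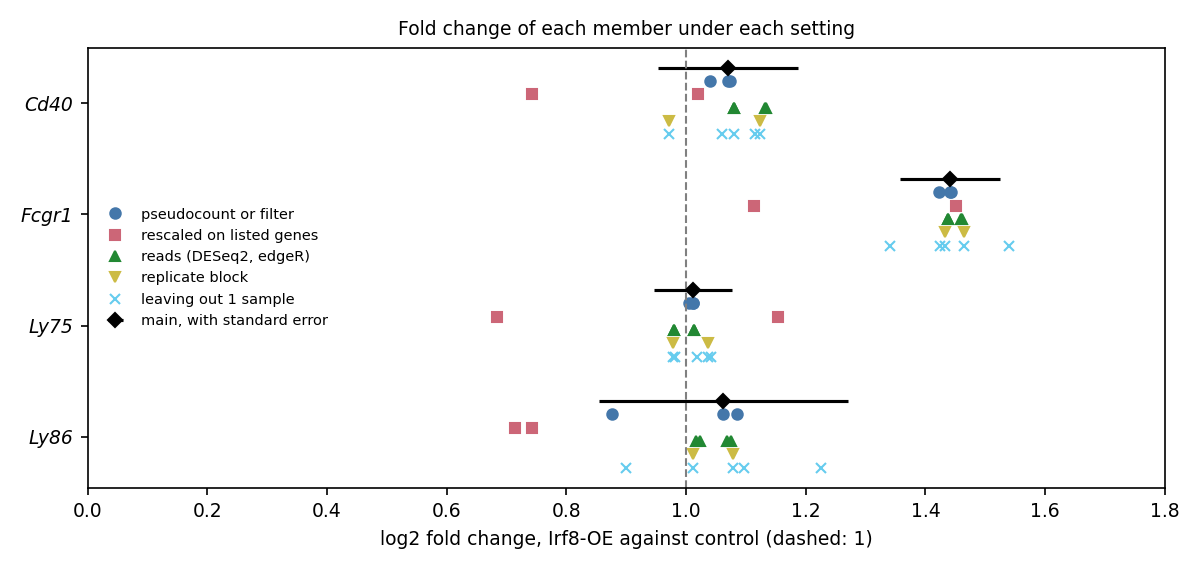
Log2 fold change of each member (horizontal axis, with a dashed line at the threshold of 1) in the main comparison, with its standard error, and under the alternative settings. *Fcgr1* is right of 1 in every setting, from 1.11 to 1.54, and the other 3 cross the line in some, with 0.68 as the lowest value for *Ly75*.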

How the data were processed

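RNA-seq of 3 *Irf8*-OE and 2 control BMDC samples was read from 1 deposited table. Poly-A mRNA was sequenced as paired ends of 150 bp. The submitters' processing notes name fastp, HISAT2 2.0.5, featureCounts 1.5.0-p3, DESeq2 1.20.0, edgeR 3.22.5 and mm10. The authors deposited normalized counts, a signal equal to reads over 1 size factor per sample, for genes past their thresholds. The log2 fold changes and p-values that the authors deposited beside them, and their group means, were not used. Coordinates are as deposited, and those of all 4 members are the same in GENCODE vM21 (GRCm38).

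Groups follow the sample titles, and columns were matched to samples by the descriptions. For every listed gene log2(normalized counts + 1) was fitted in limma 3.58.1 under R 4.3.3, using empirical Bayes moderation with an intensity trend and no covariates. P-values were adjusted over all 1355 genes by Benjamini-Hochberg. Since the listed genes were chosen on these samples, p-values describe them and test nothing anew. Pair ratios were compared by exact permutation over samples. The fits were also run on simulated counts in which most genes did not differ. Nearly all genes listed here do differ, so that run does not show how the fits perform on them. Members and gene lists were chosen with earlier results of these data known, and the motifs with the promoter sequences in view. Named are the members, the genes that check the labels, all listed genes of a list with 5 or fewer (otherwise the 3 of largest change with a mean of at least 50 normalized counts in a group), the 3 genes of nearest profile per member, and the nearest listed gene. Others are said to be chosen later, and 1 gene that the rule names is not reported here.

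Between 646123 and 1062127 reads per sample lay on listed genes, and 3 reads correspond to 2.80 to 3.37 normalized counts. Alternatives were pseudocounts of 0.1 and 10, a filter of 10 normalized counts in every sample of a group, quantile and TMM scaling, DESeq2 1.42.0 and edgeR 4.0.16 on recovered reads, thresholds of 0.5 and 2, a replicate block, and leaving out each sample. In the third *Irf8*-OE sample a read is worth 1.00 normalized counts, too near 1 for an automated check of recovery, so the tests on reads were also run without it.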

Additional observations from a re-analysis of the deposited data

How the results depend on the processing

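All 64 log2 fold changes of the 4 members under 16 alternatives each were above 0, and 13 of them fell to 1 or less. The members were listed for a difference in these same samples, so nothing is read from the shared sign. Estimates under the replicate blocks repeat fits with a sample left out, as given below. TMM scaling gave 0.74 for *Cd40*, 0.68 for *Ly75* and 0.74 for *Ly86*. It left 1 of the 4 members called higher, where 42.9% of all listed genes were called so. Quantile normalization gave 0.71 and a pseudocount of 10 gave 0.88 for *Ly86*. These 2 scalings were estimated on genes chosen for their difference, and they lowered the median over all listed genes by 0.33 and 0.36, as the pseudocount did by 0.15. A threshold of 2 left 0 members, where 24.7% of the listed genes passed it upward. Leaving out each sample gave 0.97 to 1.12 for *Cd40*, 1.34 to 1.54 for *Fcgr1*, 0.98 to 1.04 for *Ly75* and 0.90 to 1.22 for *Ly86*. With 1 control left out, the other is assumed to vary like the *Irf8*-OE samples. Without the third *Irf8*-OE sample, DESeq2 and edgeR gave 0.98 for *Ly75*.

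With the replicate block by title numbers *Ly75* was at 0.98, and by description numbers *Cd40* was at 0.97. The third *Irf8*-OE sample shares no number with a control by titles, and the first shares none by descriptions. A sample alone in its block does not shift the estimate. The block estimates therefore repeat those without that sample and are not separate checks. The blocks called 1319 and 1271 genes. Deviations of same-numbered samples correlated at 0.00965 and 0.0517 over 1110 genes by titles, and at -0.0517 and -0.0364 by descriptions. The deviations of the controls from their group mean mirror each other, so 0.0517 and -0.0517 are the same value with its sign turned. These correlations therefore cannot decide whether same-numbered samples belong together, and nothing is read from them.

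Of the differences between members, *Cd40* minus *Ly75* was -0.13 after quantile normalization, *Cd40* minus *Ly86* 0.31, *Fcgr1* minus *Ly86* 0.74 and *Ly75* minus *Ly86* 0.44, and the cause was not tested. A pseudocount of 10 gave 0.55 for *Fcgr1* minus *Ly86* and 0.13 for *Ly75* minus *Ly86*. Leaving out each sample gave -0.24 to 0.14 for *Ly75* minus *Ly86*, from 23 and 34 *Ly86* reads in the controls. The 3 differences with *Fcgr1* kept their direction under each of their 8 alternatives.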
